A study of Mus musculus with 12 samples.

Results

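OCT4 peaks at 36 genes of the signalling pathways that act in mouse embryonic stem cells were examined. The genes were 6 of the LIF/STAT pathway, 10 of FGF/ERK, 11 of Nodal/BMP and 9 of WNT, and a peak was counted for a gene when it overlapped the gene body or the 20 kb on either side of it in the mm10 RefSeq annotation. By this rule 209 of the 53675 consensus OCT4 peaks, or 0.389%, were members. They made 210 pairs of a peak and a gene, since 1 peak lay within reach of both Lefty1 and Lefty2. The genes lay on 18 chromosomes and none of them on the X.

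Peaks had been called from ChIP-seq, an assay that sequences the DNA pulled down with a chromatin protein, here with the anti-OCT4A antibody C3OA3C1. The mESCs (mouse embryonic stem cells) were of the iXist-ChrX-Cast line, a female hybrid whose castaneus X chromosome carries an Xist gene under a doxycycline-inducible promoter, so every library shares that allele and no line without it was used here. They were kept in serum with LIF on SNLP fibroblast feeders, which were removed by pre-plating, and were harvested without doxycycline (day 0) or after 6 days of 1 µg/ml doxycycline (day 6). OCT4, YY1 and input libraries were made in 2 replicates on each day, 12 in all, of which 4 were OCT4. The peak list gives positions alone and is a consensus over libraries, so a peak has a place and a width here but no height, no depth and no value per replicate or day. For this reason counts, widths and positions are described without a test, and nothing can be said of a change between day 0 and day 6 at these genes. Regions called in input had been subtracted from the list by the authors, and none of the 840 such regions lay in the window of a listed gene.

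OCT4, encoded by Pou5f1, is a POU-domain transcription factor of the pluripotent state that binds the octamer motif, often beside SOX2 on a composite site. LIF acts through its receptor and gp130 on the kinase JAK1 and on STAT3 and helps to keep mouse stem cells undifferentiated, whereas FGF acts through ERK and prepares them for differentiation. Nodal signals through SMAD2 and SMAD3 with FOXH1, BMP induces the Id genes, and WNT stabilises beta-catenin, which relieves repression by the TCF family. Each pathway also switches on its own inhibitors, such as SOCS3, Sprouty proteins, DUSP6, Lefty proteins, SMAD7 and AXIN2.

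The sequences under some of these peaks are shown because they hold several motif matches close together, and they were read from GRCm38.p6, the assembly of mm10, on its forward strand. Capitals mark the matches. The cells are a hybrid, and whether each allele carries these reference letters was not checked. The motifs searched on both strands were the octamer (ATGCAAAT or ATGCTAAT), a composite of a SOX and an octamer part (TTGTNATGC, whose last 4 letters are the first 4 of the octamer, so that both can be matched by overlapping letters), a STAT motif (TTCCNGGAA), a FOXH1 motif (AATCCACA) and a TCF motif (ATCAAAGG).
Lefty2 upstream, chr1:180888820-180888993: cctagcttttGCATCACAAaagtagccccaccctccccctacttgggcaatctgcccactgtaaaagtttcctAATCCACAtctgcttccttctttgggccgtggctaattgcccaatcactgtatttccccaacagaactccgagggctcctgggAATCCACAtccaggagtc
Lefty1 upstream, chr1:180924804-180924894: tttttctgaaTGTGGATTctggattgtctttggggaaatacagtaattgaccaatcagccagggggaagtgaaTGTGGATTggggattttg
Lefty1 promoter, chr1:180933863-180934026: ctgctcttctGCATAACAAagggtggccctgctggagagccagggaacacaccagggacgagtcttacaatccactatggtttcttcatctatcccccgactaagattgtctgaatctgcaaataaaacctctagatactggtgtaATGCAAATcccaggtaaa
Tcf7 upstream, chr11:52286559-52286591: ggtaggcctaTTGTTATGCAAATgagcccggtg
Tcf7 far upstream, chr11:52300012-52300050: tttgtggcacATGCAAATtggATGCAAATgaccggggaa
Lef1 intron, chr3:131118103-131118135: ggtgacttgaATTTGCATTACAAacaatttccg
Lifr intron, chr15:7115852-7115917: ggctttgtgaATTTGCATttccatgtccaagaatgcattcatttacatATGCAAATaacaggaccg
The Lefty2 stretch holds a composite and 2 FOXH1 matches within 174 bases, and the Lefty1 upstream stretch 2 FOXH1 matches within 91 bases. The Tcf7 upstream and Lef1 intron stretches each hold a composite that runs into an octamer, and in the Lefty1 promoter the composite and the octamer stand apart. The far upstream Tcf7 peak and the Lifr intron peak each hold 2 octamers.

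All 36 genes had at least 1 OCT4 peak, where 80.3% of the 21774 protein-coding genes did. The median was 5 peaks per listed gene (quartiles 4 and 7) against 2 (quartiles 1 and 4) over all protein-coding genes, and the median density was 0.0780 peaks per kb of window against 0.0305. Peak number grows with the length searched, so each gene was ranked among the 500 protein-coding genes nearest to it in length, with the rank given as a percentile and a tie counted as 0.5 of a gene. The median percentile was 80.05 for the listed genes and 47.5 for all protein-coding genes. In 31 genes the count was above the median of genes of like length, in 3 it was equal to it, and in Jak1 and Smad2 it was below. Of all 21774 protein-coding genes, 9064 were above this median and 8039 below it. At percentile 90 or more stood 10 of the 36 genes (Socs3, Etv5, Lefty2, Id1, Tcf7l1, Lefty1, Lef1, Fzd5, Fgfr1 and Smad7), where 10.2% of all protein-coding genes did. Just under that line came Tcf7 at 89.4, Id2 at 89.3 and Bmp4 at 87.8.

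**Figure D1:**
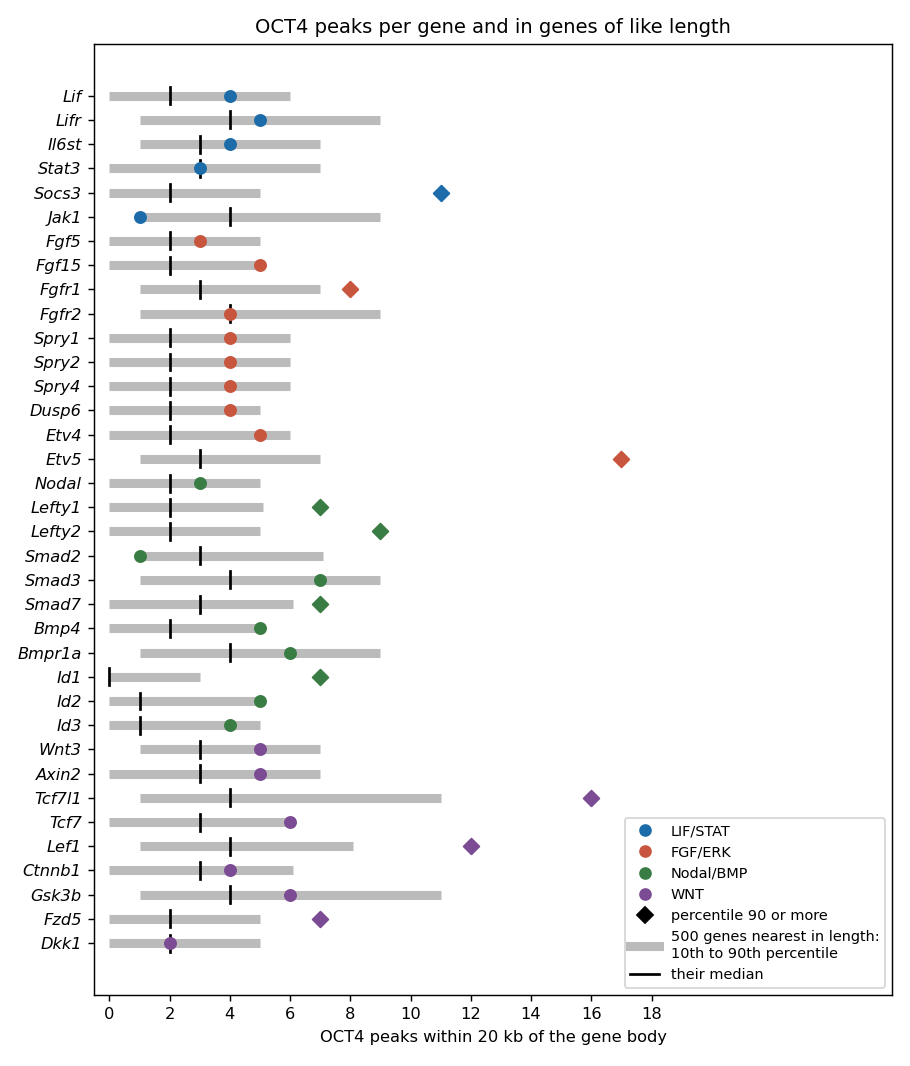
Number of OCT4 peaks within 20 kb of the gene body (horizontal axis) for each of the 36 genes, coloured by pathway, with the median (black tick) and the 10th to 90th percentile (grey bar) of the 500 protein-coding genes nearest in length. Etv5 with 17 peaks, Tcf7l1 with 16, Lef1 with 12 and Socs3 with 11 lie farthest to the right, and Jak1 and Smad2 with 1 peak each lie left of their ticks.

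An own promoter was occupied in nearly all of them. A peak within 500 bp of a transcript start of the gene itself was found in 35 of the 36 genes, where 51.0% of protein-coding genes had such a peak, and Lef1 was the exception. In Lif and Lifr the start concerned was an alternative one inside the gene, 9.44 kb and 38.79 kb from the outermost start. Among the 11111 protein-coding genes with an own promoter peak the median was 4 peaks per gene, closer to the 5 of the listed genes. Ranked only among genes of like length with an own promoter peak, the 36 listed genes, Lef1 included, had a median percentile of 70.45 and 9 of 36 stood at percentile 90 or more, where 10.4% of the genes ranked did. How strongly the genes are transcribed in these cells was not measured here, and peak numbers could not be set against it.

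Listed genes differed most from other genes close to the gene start. Peaks with their middle within 5 kb of the outermost start numbered 2.58 per listed gene against 0.820 per protein-coding gene and 1.42 per protein-coding gene with an own promoter peak. At least 3 such peaks were held by 19 of the 36 genes, against 5.07% of all protein-coding genes and 9.43% of those with an own promoter peak. Between 1 and 2 kb upstream of the start the density was 0.250 peaks per gene per kb against 0.0384 over all protein-coding genes, and between 2 and 5 kb upstream it was 0.167 against 0.0359. Beyond 10 kb upstream the densities were near each other, 0.0417 against 0.0365. On the transcribed side the corresponding values were 0.333 against 0.0637 at 1 to 2 kb and 0.139 against 0.0364 at 2 to 5 kb.

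**Figure D2:**
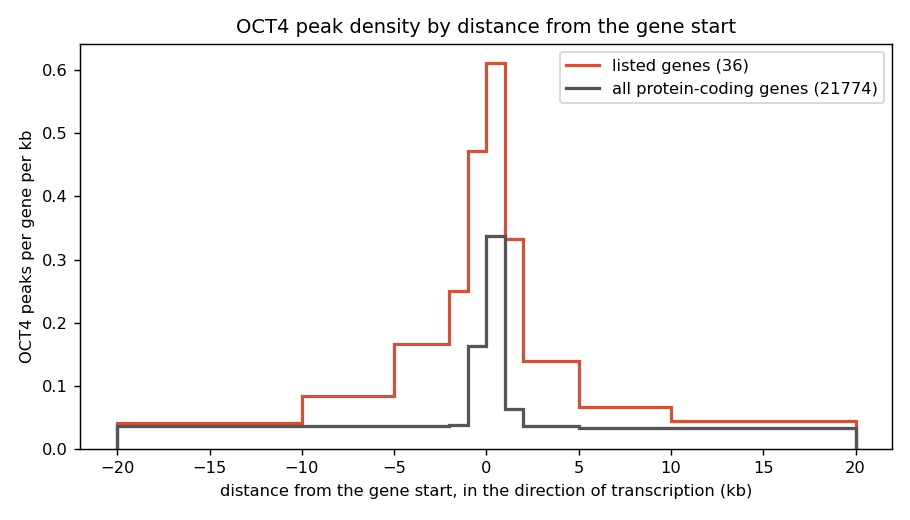
OCT4 peaks per gene per kb (vertical axis) by distance of the peak middle from the outermost gene start (horizontal axis, kb, negative upstream) for the 36 listed genes and for all 21774 protein-coding genes. The line of the listed genes is above that of all genes throughout, with 0.611 against 0.338 in the first kb of the gene, and comes nearest to it beyond 10 kb, at 0.0417 against 0.0365 upstream.

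Of the 210 pairs, 113 had the peak overlapping the gene body, 63 had it upstream and 34 downstream. By annotation, 60 of the 209 peaks (28.7%) lay within 500 bp of any RefSeq start and were counted as promoter peaks, 13 (6.22%) overlapped a coding exon, 19 (9.09%) another exon, 60 (28.7%) lay in introns and 57 (27.3%) between genes. Among the other 39826 peaks within 20 kb of a protein-coding gene the promoter share was 31.4%, the coding exon share 5.79%, that of other exons 3.90%, the intronic share 38.1% and the intergenic share 20.8%. The exact 95% binomial interval for the members was 22.7% to 35.4% for promoters and for introns, 5.56% to 13.8% for other exons and 21.4% to 33.8% for intergenic peaks, and it covers the counting of peaks only, as neighbouring peaks are not independent. The nearest protein-coding start belonged to the listed gene for 187 of the 209 peaks. Peaks were often close together, with 89 of 209 (42.6%) having another peak within 1 kb, against 19.7% of the other peaks near genes. The median gap to the next peak was 1545 bp against 5882.5 bp.

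Runs of at least 3 peaks, each less than 1 kb from the next, were found at 9 genes. The longest was at Fzd5, a Frizzled receptor for WNT ligands. There 6 peaks covered 65.0% of the 7536 bp of chr1:64731479-64739014, which takes in the gene start and most of the gene body. When peaks under 500 bp apart were merged, Fzd5 stood at percentile 81.1, against 95.2 without merging. At Dusp6, which encodes an ERK phosphatase, 4 peaks covered 63.2% of 4574 bp. Runs of 4 peaks also stood upstream of Lef1 (2892 bp) and across the start of Smad3 (2576 bp), and runs of 3 peaks at Lefty2, Etv4, Il6st, Etv5 and Tcf7l1.

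**Figure D3:**
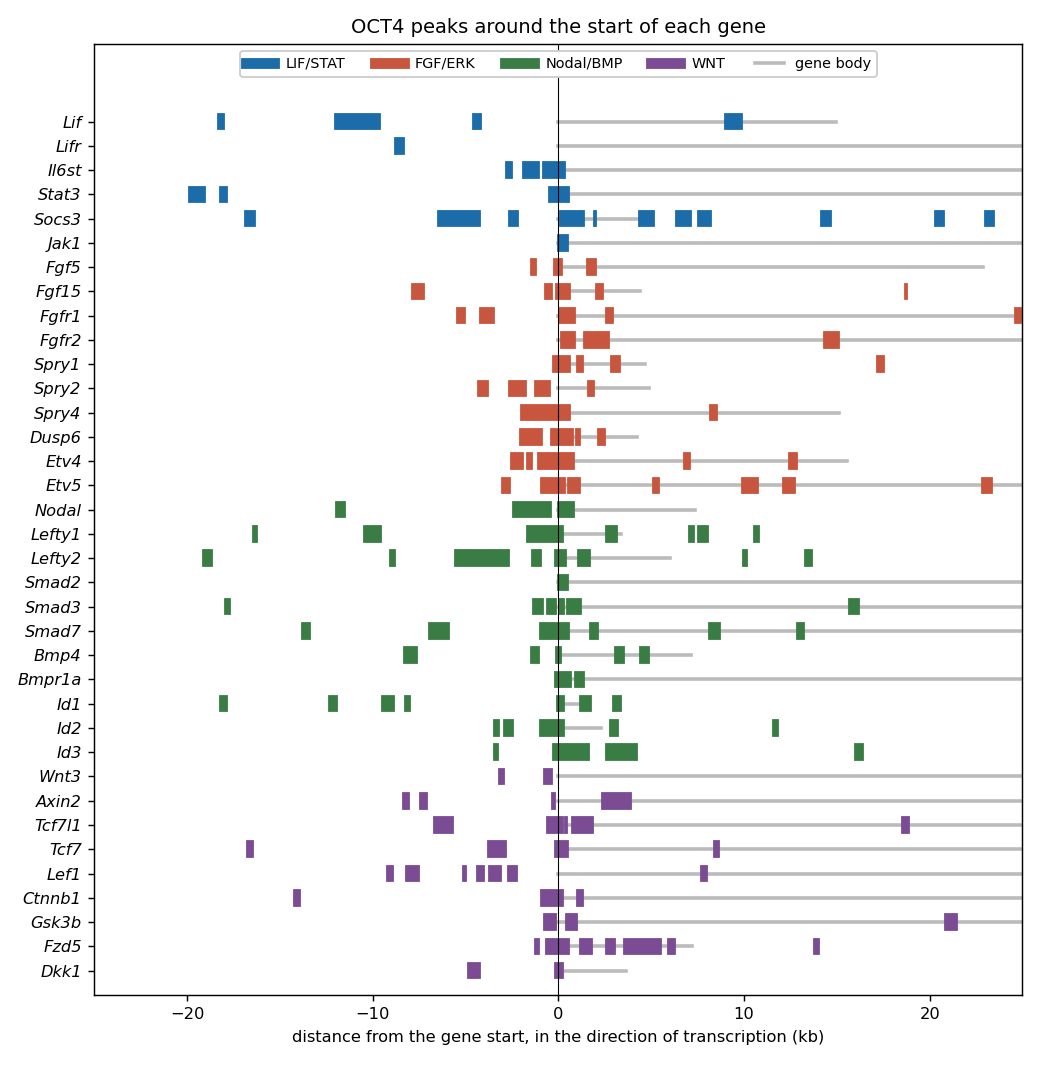
Position of OCT4 peaks relative to the outermost start of each listed gene (horizontal axis, kb, in the direction of transcription), drawn to scale and coloured by pathway, with the gene body as a grey line. The 156 of 210 pairs whose peak middle lay within 25 kb are drawn, and the peaks reach to within 500 bp of 0 in all genes but Lif, Lifr and Lef1.

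The LIF/STAT genes held 28 peaks, a median of 4 per gene, and of the 4 listed pathway sets had the lowest median percentile, 66.5. Lif, the ligand, had 4 peaks (percentile 75.2), none at its outermost start. The widest of them, 2402 bp at chr11:4245554-4247955, lay at -10.81 kb from the start, where negative distances are upstream, and nearer to the start of Osm, which encodes the related cytokine oncostatin M. The Lif peak at -18.18 kb was also nearest to Osm. The receptor genes Lifr and Il6st, the latter encoding gp130, had 5 and 4 peaks (65.1 and 67.9). Of the 5 peaks of Lifr, 4 lay in the gene and the widest of these, 2232 bp, was at 25.64 kb. In Il6st, 3 of the 4 peaks formed a run at -2.65, -1.47 and -0.22 kb. Stat3, the transcription factor, had 3 peaks (55.7), of which 1 was at its promoter and the others at -18.05 and -19.47 kb were nearer to Cavin1. Jak1, the kinase, had only its promoter peak, the lowest percentile of the list at 12.1 against a median of 4 peaks in genes of like length.

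Socs3, the feedback inhibitor of this pathway, stood apart from the other 5 genes. It had 11 peaks (percentile 99.8; genes of like length had a median of 2) around a body of 4.258 kb at chr11:117966079-117970336, and its density of 0.249 per kb was the highest on the list. A promoter peak of 1308 bp was centred at 0.74 kb. Upstream peaks lay at -2.44, -5.36 and -16.61 kb, of which the second was 2266 bp wide and held an octamer, and the last was at the promoter of Pgs1. Further peaks lay at 2.00, 4.75, 6.74, 7.85, 14.40, 20.51 and 23.22 kb. All but the Pgs1 promoter peak had Socs3 as the nearest protein-coding start. The promoter peak and the peak at 7.85 kb each held a STAT match, in the second of these within gaaattccctTTCCAGGAAgagcggaagc (capitals mark the match).

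The FGF/ERK genes held 58 peaks, a median of 4 per gene and a median percentile of 78.05. The ligand genes Fgf15 and Fgf5 had 5 and 3 peaks (86.1 and 65.8). Fgfr1, an FGF receptor gene, had 8 peaks (93.0) over a body of 56.96 kb at chr8:25518759-25575718. They lay upstream at -5.24 and -3.85 kb, at the start at 0.45 kb, and within the gene at 2.76, 24.75, 26.43, 29.41 and 41.56 kb. Of these, the peak at 26.43 kb lay within 500 bp of a start that was not of Fgfr1. The protein-coding start nearest to the peak at 41.56 kb was that of Letm2. Fgfr2 had 4 peaks (53.2), all in the gene, with the widest, 1387 bp, at 2.05 kb.

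The inhibitors of the pathway each had 4 peaks. Spry1, Spry2 and Spry4 encode Sprouty proteins, which restrain receptor tyrosine kinase signalling, and stood at percentiles 77.4, 78.7 and 76.3, with Dusp6 at 77.1. The promoter peak of Spry4, 2614 bp at chr18:38600747-38603360, was the second widest of all members, and its middle was nearest to a start of Arhgap26. At Dusp6 the peaks lay at -1.50, 0.20, 1.06 and 2.31 kb and the first held an octamer. The ETS factors ETV4 and ETV5 are induced by FGF. Etv4 had 5 peaks (84.2), including a promoter peak of 1890 bp.

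Etv5 had the most peaks of the list, 17 (percentile 99.7) against a median of 3 in genes of like length, at chr16:22381313-22439570. Of these, 16 overlapped the gene body and all 17 had Etv5 as the nearest protein-coding start. Counted from the start, a promoter pair lay at -0.30 and 0.84 kb and an upstream peak at -2.81 kb. Within the gene, peaks followed at 5.26, 10.32, 12.43, 23.08, 25.06, 26.66, 27.68, 30.41, 33.34, 35.59, 36.82, 41.02, 44.18 and 58.17 kb. Octamers were found in the peaks at 25.06 and 27.68 kb. The widest peak, at the promoter, was 1316 bp, and the 17 peaks together covered 9662 bp, the most of any gene on the list.

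The Nodal/BMP genes held 60 peaks, a median of 6 per gene. Of the 4 listed pathway sets they had the highest median percentile, 87.8, but the further Nodal/BMP genes described below had the lowest, 62.4. At percentile 90 or more stood 4 of the 11 genes, where 10.2% of all protein-coding genes did. Nodal, the ligand, had 3 peaks (66.3), of which a promoter peak of 2050 bp was centred at -1.43 kb, and Bmp4 had 5 (87.8). Bmpr1a, a BMP receptor, had 6 peaks (74.1), all in the gene. The effectors differed, as Smad3 had 7 peaks (82.6), 4 of them in a run across the start, and Smad2 had 1 (15.7), at its promoter.

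The inhibitors of Nodal signalling had more peaks for their length. Lefty2, at chr1:180893108-180899107, had 9 peaks (percentile 98.4). They lay upstream at -18.90, -8.94, -4.09 and -1.18 kb, at the start at 0.10 kb and in the gene at 1.37 kb, with 3 more downstream. The peak at -4.09 kb, chr1:180887560-180890469, was the widest member at 2910 bp, and it contains the stretch printed above with a composite and 2 FOXH1 matches. Lefty1, a tandem paralogue at chr1:180935022-180938401, had 7 peaks (95.8). They lay at -16.35, -10.04, -0.72, 2.89, 7.16, 7.81 and 10.67 kb, and the last 3 were promoter peaks of Tmem63a. The promoter peak, 1950 bp, held a composite and an octamer, and the peak at -10.04 kb held 2 FOXH1 matches. As the genes are related in sequence, reads from stretches they share could have been placed at either, and this was not tested.

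Smad7, an inhibitory SMAD at chr18:75367365-75395935, had 7 peaks (92.1), at -13.61, -6.44, -0.22, 1.90, 8.42, 13.05 and 30.16 kb, all nearest to its own start. The Id genes encode inhibitors of basic helix-loop-helix factors and are direct BMP targets. Id1, at chr2:152736251-152737410, had 7 peaks (98.1) where genes of like length had a median of 0. Ranked only among genes of like length with an own promoter peak, it stood at 90.4. The 7 peaks lay at -18.04, -12.15, -9.20, -8.12, 0.12, 1.45 and 3.16 kb. Id2 had 5 peaks (89.3) and Id3 had 4 (83.7), including peaks of 1904 bp and 1673 bp at 0.67 and 3.41 kb.

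The WNT genes held 63 peaks, a median of 6 per gene and a median percentile of 80.8. Wnt3, a ligand, had 5 peaks (79.3), of which the widest, 2352 bp at chr11:103808959-103811310, lay at an alternative start 35.96 kb into the gene. Fzd5, at chr1:64730558-64737750, had 7 peaks (95.2), at 13.90, 6.08, 4.54, 2.81, 1.48, -0.05 and -1.17 kb, the largest of them 1969 bp at 4.54 kb. Of the other pathway members, Ctnnb1, which encodes beta-catenin, had 4 peaks (71.5) and Gsk3b, the kinase that marks it for destruction, had 6 (65.8). The inhibitor genes Axin2 and Dkk1 had 5 and 2 peaks (80.8 and 53.4).

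Within the WNT genes Tcf7l1 and Lef1 had the most peaks. Tcf7l1, which encodes the repressor TCF3 of stem cells, had 16 peaks (percentile 96.8) over 162.675 kb at chr6:72626371-72789045. Those near the start lay at -6.21, -0.17, 0.42 and 1.30 kb. The rest of the gene held peaks at 18.70, 30.41, 35.05, 37.78, 77.52, 110.49, 111.22, 132.85, 133.52 and 141.45 kb, and those at 165.80 and 172.32 kb were downstream and nearest to Tgoln1. Octamers were found in the peaks at 18.70, 30.41 and 141.45 kb. Lef1, at chr3:131110297-131224357, had 12 peaks (95.4) and none at its own start. Its peaks upstream lay at -9.09, -7.86, -5.04, -4.19, -3.43 and -2.46 kb, and those inside at 7.84, 29.94, 34.14, 80.54, 89.75 and 108.89 kb. Outside Lef1, those at -7.86, -4.19 and -3.43 kb overlapped exons of other annotated transcripts. Likewise, the peak at -5.04 kb lay in an intron and that at -2.46 kb at a start, neither of Lef1. The peak at 108.89 kb was nearest to the start of Hadh. The peak at 7.84 kb holds the overlapping composite and octamer printed above. Tcf7 had 6 peaks (89.4), of which those at -3.31 and -16.62 kb hold the stretches printed above.

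By role, 5 of the 13 inhibitors and feedback targets, 3 of the 8 transcription factors and 2 of the 6 receptors stood at percentile 90 or more, where 10.2% of all protein-coding genes did. None of the 6 ligands (median percentile 77.25) and none of the 3 transducers (65.8) did. With groups this small a count of 0 says little at that share, and the differences between roles were not tested.

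Member peaks had a median width of 477 bp (quartiles 336 and 729, range 87 to 2910), against 421 bp (quartiles 304 and 640) over all consensus peaks and 432 bp over the other peaks near genes. Widths of at least 1000 bp were found in 30 of 209 members (14.4%, exact 95% binomial interval 9.90% to 19.9%) and in 9.42% of the other peaks near genes. Promoter members were wider, with a median of 653.5 bp, than the 435 bp of the rest, and the corresponding medians over all other peaks were 581.5 and 389 bp. The median was 545.5 bp at LIF/STAT genes, 467 bp at FGF/ERK, 464.5 bp at Nodal/BMP and 379 bp at WNT genes. The 5 widest members were at Lefty2, Spry4, Lif, Wnt3 and Socs3.

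**Figure D4:**
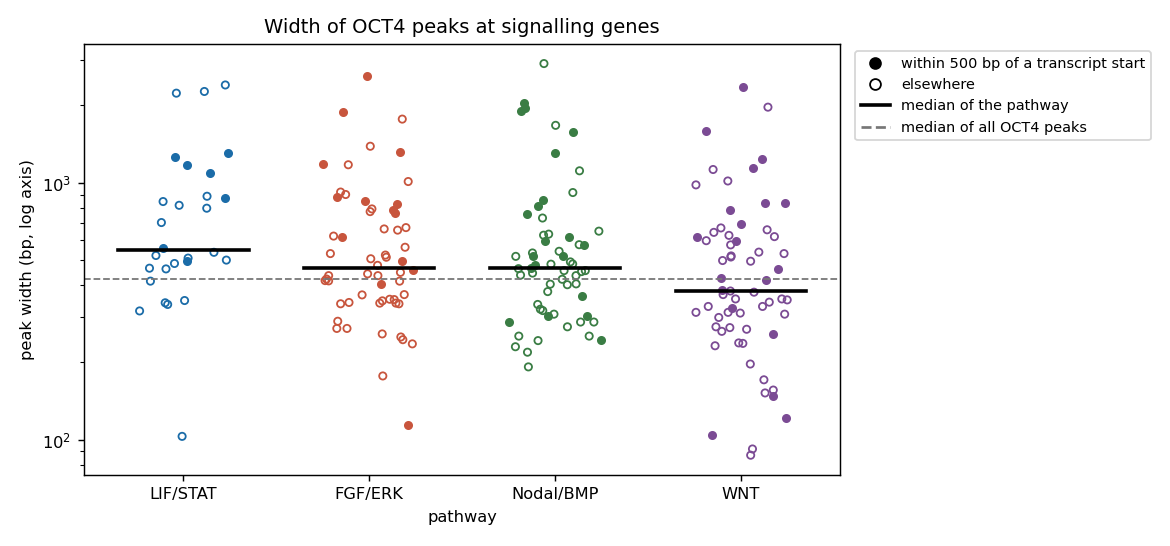
Width of each member peak (vertical axis, bp, log scale) by pathway, with filled points for peaks within 500 bp of a transcript start, a black line at the median of each pathway and a dashed line at the median of all consensus OCT4 peaks, 421 bp. The medians of LIF/STAT, FGF/ERK and Nodal/BMP peaks lie above the dashed line and that of WNT peaks, 379 bp, below it.

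An octamer was found in 30 of the 209 member peaks (14.4%, exact 95% binomial interval 9.90% to 19.9%), against 13.5% of the other peaks near genes and 15.2% of all consensus peaks. Regions of the same width 5 kb to the right of the member peaks held it in 6.22% of cases. By pathway it was found in 4 of 28 peaks at LIF/STAT genes, 7 of 58 at FGF/ERK, 10 of 60 at Nodal/BMP and 9 of 63 at WNT genes. The composite was found in 6 member peaks (2.87%, 1.06% to 6.14%) and in 4.37% of the other peaks near genes. These 6 were at Lefty1, Lefty2, Tcf7, Lef1 and, with 2 peaks, Lif, and none of the 58 FGF/ERK peaks held one. The 2 peaks counted for Lif were both nearer to the start of Osm. A STAT match was found in 8 member peaks (3.83% against 2.14% of the other peaks near genes), a FOXH1 match in 7 (3.35% against 1.81%) and a TCF match in 4 (1.91% against 2.17%). The interval of the member share included the value of the other peaks in each of these cases. A match is a description of the letters, and wider peaks have more room for one: the octamer was found in 2 of 39 members under 300 bp and in 8 of 30 of at least 1000 bp.

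A wider list of 140 further genes of the same pathways had a lower median percentile than the listed genes. Of these, 137 had a peak, where 80.3% of all protein-coding genes did, and 27 stood at percentile 90 or more. The median percentile was 66.15, against 47.5 over all protein-coding genes. The median was 4 peaks and 0.0571 per kb, against 2 peaks and 0.0305 per kb. At percentile 90 or more were 2 of 21 LIF/STAT, 11 of 34 FGF/ERK, 4 of 37 Nodal/BMP and 10 of 48 WNT genes, where 10.2% of all protein-coding genes did, so the LIF/STAT and Nodal/BMP counts were close to that share. Median percentiles of these further genes were 74.65 for FGF/ERK, 69.15 for WNT, 65 for LIF/STAT and 62.4 for Nodal/BMP. The order of the pathways thus differed from that of the listed genes. In the FGF/ERK set those at percentile 95 or more were Fgf17, Il17rd, Map2k1, Spred2, Fgf4, Frs3 and Shc1, with 7 to 15 peaks. Of the 10 listed FGF/ERK genes 2 stood at percentile 90 or more, so for this pathway the share was not lower among the further genes. Fgf4, the FGF ligand made by stem cells, had 7 peaks (96.2), and Spred2, which encodes an inhibitor of ERK signalling, had 15 (97.0). In the Nodal/BMP set they were Tdgf1, the Nodal co-receptor, with 11 peaks (99.9), Tgif1 with 10 and Gdf3 with 8. In the WNT set they were Csnk1e with 9, Porcn with 8 and Dvl3 with 7. Wnt4, Nkd1 and Dkk2 had no peak.

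For comparison, 15 genes that mark embryonic stem cells had a median of 9 peaks and a median percentile of 97.9. At percentile 90 or more stood 9 of them, among them Pou5f1 (9 peaks), Sox2 (10) and Esrrb (26). The share over all protein-coding genes was 10.2%. Lowest were Klf4 (78.6) and Prdm14 (71). Peaks give where OCT4 was found and not expression, so these counts cannot tell which cells were present. Of 12 markers of the feeder fibroblasts, 8 had a peak, where 80.3% of all protein-coding genes did. None reached percentile 90 and the median was 1.5 peaks. Fn1 had the most, 7 peaks (88.4), and Twist1, Postn, Lox and Dcn had none. Tdgf1 is on the stem cell list and on the Nodal/BMP list.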

How the data were processed

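Chromatin from iXist-ChrX-Cast mESCs was immunoprecipitated for OCT4 in 2 replicates at each of day 0 and day 6. No source used here says that replicates were separate cultures. Bowtie2 2.3.5.1 and deepTools 3.5.0 are named in the processing notes of the submitters. As the methods of the study state, alignment was to mm10 masked at positions that differ between the parental strains. By the same methods, peaks were called in each library with MACS2 (BAMPE, q of 0.01). Regions called in at least 2 libraries were kept if between 50 bp and 10 kb, and regions called in input were removed. The methods do not name which OCT4 libraries entered the consensus. The list as deposited holds peak positions and no other measurement. Allelic ratios and the authors' YY1 values cover the X chromosome and were not used here.

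Gene bodies and transcript starts came from RefSeq GRCm38.p6, and all 36 listed genes and the 140 further pathway genes were found. The members and lists were chosen with earlier results of these data known. All listed genes were named, those at percentile 90 or more with each peak, the 5 widest peaks, and further pathway genes at percentile 95 or more, at most 8 per pathway. Wnt4, Nkd1 and Dkk2 were named after their values were seen. Motif shares in regions 5 kb to the right served as a background. Alternatives were another flank, peak width, merging, assignment, peers, threshold, promoter window and motif definition. The counting and ranking were run on peaks placed at random, with extra peaks added to some genes. The clustering of real peaks was not simulated, so this checks the code only. Distances are from the outermost start to the peak middle. Python 3.11.15, numpy 2.4.6, pandas 2.3.3, scipy 1.17.1, pysam 0.24.0 and matplotlib 3.10.9 were used. Some items are not reported here.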

Additional observations from a re-analysis of the deposited data

How the results depend on the processing

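Over 8 quantities, 51 alternative values were computed, of which 39 stayed within 1.5 times the value reported, or within its binomial interval for a share, and 12 did not. All 36 genes kept a peak under the 7 alternatives of window, width, merging and assignment.

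With 5 kb flanks 18 listed genes stood at percentile 90 or more (9.89% of all protein-coding genes). With each peak given only to the gene of its nearest protein-coding start 22 did (9.61%), and with peaks of at least 500 bp 6 did (9.27%). The other alternatives gave 9 to 12, and 8 genes stood at percentile 95 or more. With 50 kb flanks there were 327 member peaks and a median of 8 per gene. With peaks of at least 500 bp there were 95, a median of 2 per gene and 0.0363 per kb. The promoter share was 35.9% with 1000 bp, 18.2% with direct overlap of a start and 21.5% with starts of listed genes only. The octamer share was 7.18% in the central 200 bp.

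Over 13 alternatives, Socs3, Etv5, Id1 and Tcf7l1 stayed at percentile 90 or more in all. Lefty2, Lefty1, Lef1 and Fgfr1 did so in 12, and Fzd5 and Smad7 in 11. The lowest percentiles were 66.3 for Lef1 and 72.4 for Fgfr1, each with peaks of at least 500 bp, and 77.5 for Lefty1 without promoter peaks. Next came Fzd5, at 81.1 with peaks under 500 bp apart merged. Of the other 26 genes, 13 reached percentile 90 in at least 1 alternative. Peers with an own promoter peak, autosomal peers and peaks away from every start were alternatives chosen after seeing the data. For the results that moved, the cause was not tested.

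No paired analysis was possible because the peak list is a consensus over libraries with no value per library, and leaving out a replicate was not possible for the same reason. Depth, peak height and any difference between days at these genes cannot be read from it.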
